A study of Mus musculus with 8 samples.

Results

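The genes described here are 10 genes of blood vessel growth and of the response to low oxygen, chosen by name from the 22911 mouse genes that a probe of the array could be assigned to. They are Vegfa, Kdr, Flt1, Tek, Tie1, Eng, Hif1a, Epas1, Pdgfrb and Rgs5. Probes were taken where their RefSeq accession belonged to 1 of these genes and they were not control spots, which gave 13 probes, 4 of them for Vegfa and 1 for each of the other 9 genes. Of the 10 genes, 8 were among the 14840 genes compared between the groups, and Tek and Tie1 were not well above background on any array. The RNA came from photoreceptor cells isolated from mouse retina at postnatal day 8 and was hybridized to single-colour Agilent SurePrint G3 arrays. By their labels, 4 arrays are from Lpcat1 heterozygous (HZ) and 4 from Lpcat1 knockout (KO) mice. Lpcat1 encodes an acyltransferase that remodels phospholipids, and the comparison asks how gene expression in these cells differs when both copies of Lpcat1 are deleted rather than 1. HZ mice thus carry a deleted allele as well, the deletion in KO mice is present in all cell types, and the mice of both groups are labelled C57BL/6. Per the methods, the line was made in C57BL6/N mice and crossed to C57BL6/J so that no mouse used was homozygous for the rd8 mutation, and retinas were dissociated with trypsin before cells were captured with an antibody to CD73 (the product of Nt5e) and magnetic beads.

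Vegfa is a secreted growth factor that attracts and sustains endothelial cells, and it signals through the receptor tyrosine kinases Kdr and Flt1 on their surface. Tek and Tie1 are the angiopoietin receptor and its partner, Eng is a co-receptor for ligands of the TGF-beta family, Hif1a and Epas1 are the oxygen-sensitive subunits of the factors that switch on Vegfa in hypoxia, and Pdgfrb and Rgs5 are known from the pericytes that wrap capillaries. In the mouse retina the vessels spread over the inner surface after birth and then grow into the deeper layers, whereas the photoreceptor layer itself stays free of vessels.

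Each value given for an array is the log2 signal of a probe minus the 75th percentile of that array, and it can be compared between arrays for the same probe but not between probes. The 75th percentile lay between 882 and 1024 intensity units, the share of probes well above background ran from 59.5% to 63.8%, and 0 spots outside the controls were saturated. Spots left out as non-uniform outliers numbered 458 on the array of HZ replicate 4, against 2 to 25 elsewhere. All arrays lay on the same slide, KO arrays in slide row 1 and HZ arrays in slide row 2, so that genotype cannot be told apart from position on the slide. Replicate numbers are those of the labels. The number also gives the slide column, so that each column held 1 HZ and 1 KO array. The labels do not say whether replicates were separate mice, and p-values therefore measure only the spread between these samples. With 4 arrays a group, precision is limited by the number of arrays.

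The single Lpcat1 probe read -0.81, -0.95, -1.02 and -1.17 in HZ replicates 1 to 4 and -0.97, -1.16, -1.11 and -0.85 in KO replicates 1 to 4. The values of the groups overlapped over most of their range, and the difference was -0.04 (SE 0.11, limma adjusted p = 0.930). The probe did not separate the labels, whether it lies inside the deleted part was not analysed here, and every direction below is that of arrays labelled KO against arrays labelled HZ. The paper reports from qPCR that Rpe65 mRNA was lower in photoreceptor cells isolated from KO than from control mice. On these arrays Rpe65 was also lower in those labelled KO, with a difference of -2.38. The paper proposes that lower genes of the retinal pigment epithelium may reflect less contamination by its fragments in KO samples. That reading was not tested here. Nt5e, the surface marker used to isolate the cells, was well above background on all 8 arrays, with 4.27, 4.29, 4.36 and 4.39 in HZ and 4.05, 4.27, 4.25 and 4.29 in KO. Crx, a transcription factor of photoreceptors, was well above background on all 8 arrays too, and its difference was 0.14 (SE 0.09, limma adjusted p = 0.712).

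Of the 8 genes that could be compared, 6 had a higher and 2 a lower mean in KO than in HZ, and the median log2 difference was 0.15. Of the 6, Flt1, Epas1 and Rgs5 stayed higher under all alternatives run. Vegfa, Eng and Pdgfrb changed sign in at least 1 of them, and Eng and Pdgfrb were well above background on some arrays only. Over the members compared in each alternative the median ran from 0.06, with the mean of a gene's probes, to 0.33, without HZ replicate 3. Over all genes tested the median was 0.03, with 56.8% of genes higher in KO, but this median was -0.00354 where the percentile was taken from probes clear of background on every array, 0.000957 without a filter and 0.06 without HZ replicate 2. At the stricter thresholds of the methods, a fold change over 1.2 with an adjusted p under 0.05, 0 of the 8 genes were called, where limma called 0% of all genes. At the looser thresholds, a fold change over 1.5 with an adjusted p under 0.5, 0 of the 8 genes were called. Of all genes 1.46% were called, 1.13% lower and 0.33% higher in KO. A cutoff of 0.5 accepts that a share of up to 0.5 of the calls is expected to be false. The smallest limma adjusted p over all probes tested was 0.157, so no single call is secure. When replicate 1 or 3 of HZ or replicate 3 of KO was left out, 0 of all genes were called at the looser thresholds. Every such call from the fit over all 8 arrays thus depends on each of these 3 arrays. A lost call does not by itself show a smaller difference. The median of the retinal pigment epithelium markers given below was -1.16, -1.41 and -1.57 without these arrays in turn, against -1.45 over all 8. At an unadjusted p under 0.05 the count was also 0 of 8, with limma, which called 9.31% of all genes there, and with the methods' t-test, which called 11.4%. The groups overlapped for every one of the 8 genes. How many of all genes tested overlapped was not counted, so this describes the 8 genes only. The same limit holds for genes named below whose groups did not overlap. A p that misses a threshold does not show that the levels were alike. Unless stated, the errors below are those of the fit without a block. They give the size of difference that this fit could resolve with 4 arrays a group. With the replicate number as a block, 1 of the 8 genes, Kdr, passed the looser thresholds.

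**Figure D1:**
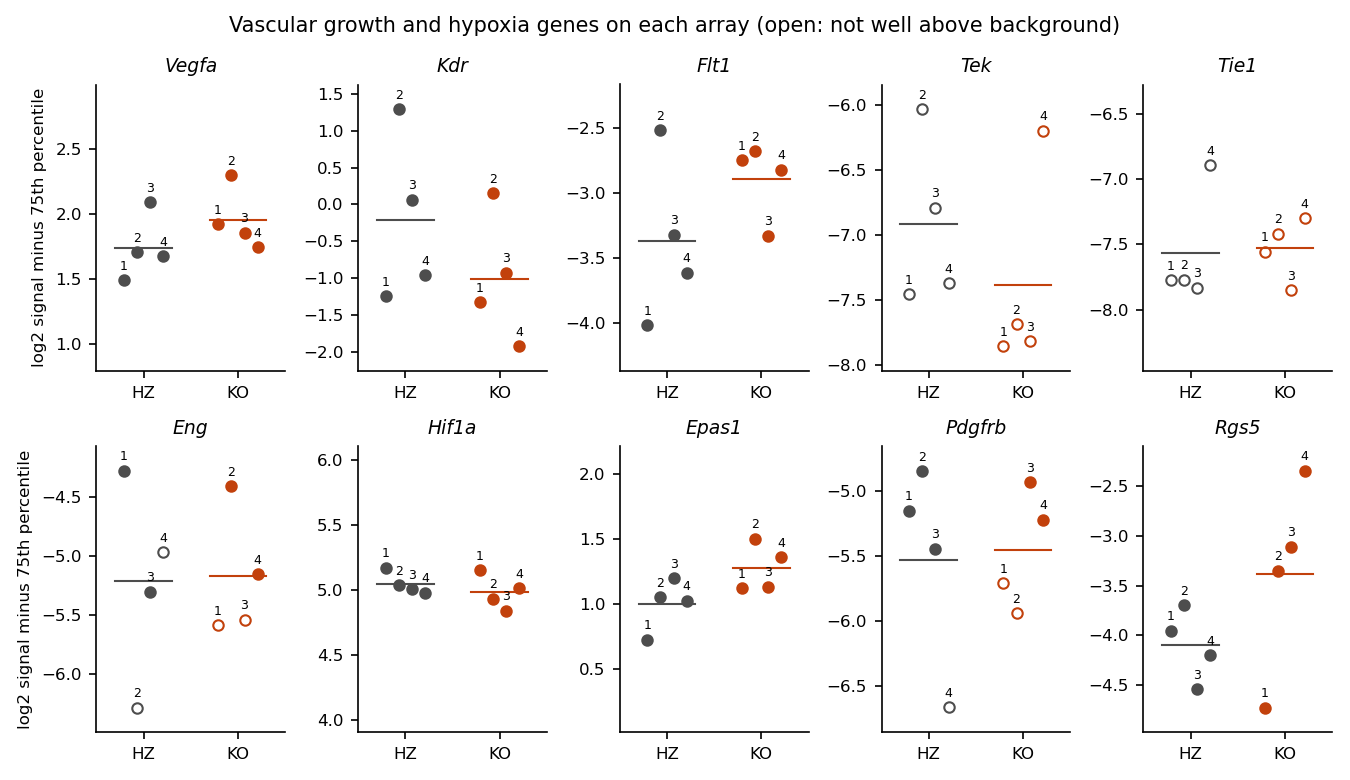
Normalized log2 signal (log2 signal minus the 75th percentile of the array, vertical axis) of the 10 genes on each array, HZ in grey and KO in orange, with the replicate number beside each point and a bar at the group mean. Open points were not well above background, which holds for all 8 arrays of Tek and Tie1. Vegfa is shown by its tested probe with the highest mean.

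Vegfa, the ligand, is given by its tested probe with the highest mean, which read 1.49, 1.71, 2.09 and 1.67 in HZ and 1.92, 2.29, 1.86 and 1.74 in KO. HZ replicate 1 was the lowest array and KO replicate 2 the highest, while HZ replicate 3 lay above 3 of the 4 KO arrays. The difference was 0.21 (SE 0.16, limma adjusted p = 0.738), with KO above HZ in 3 of the 4 pairs of arrays that share a replicate number and below it in replicate 3, by -0.23. It was 0.10 without KO replicate 2 and 0.33 without HZ replicate 3.

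The other Vegfa probes were also well above background on all 8 arrays. The second probe read -0.27, -0.30, 0.05 and -0.02 in HZ and 0.07, 0.35, 0.02 and -0.26 in KO. Its groups overlapped, with KO replicate 2 again the highest array, and it differed by 0.18 (SE 0.15, limma adjusted p = 0.749). The third probe read -2.45, -2.15, -2.15 and -2.41 in HZ and -2.03, -1.79, -2.14 and -2.18 in KO. Here only KO replicate 4 reached into the range of the HZ arrays, KO lay above HZ in 4 of 4 pairs, and the difference was 0.25 (SE 0.12, limma adjusted p = 0.638).

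The fourth Vegfa probe went the other way. It read -3.46, -4.18, -3.31 and -3.29 in HZ and -4.08, -4.73, -4.57 and -4.42 in KO. Of the HZ arrays, replicate 2 lay below KO replicate 1 and inside the KO range, and the other three lay above all KO arrays. KO was lower in 4 of 4 pairs, with pair differences of -1.26 to -0.55, and the difference of -0.89 (SE 0.22, limma adjusted p = 0.421) was past the looser thresholds. Of the 11 tested probes it was the 1 that passed them, against 0.811% of all tested probes that were lower in KO by this rule. The call was lost with normexp background correction, where the difference was -0.42 (adjusted p = 0.346) and no longer reached a fold of 1.5, without a filter on dim probes, where the difference was still -0.89 (adjusted p = 0.803), and on leaving out any array other than HZ replicate 2 or KO replicate 1, where it was -0.90 to -0.80 (adjusted p from 0.559 to 0.814). It held with the replicate block (adjusted p = 0.309) and with the other alternatives run on this probe, among them quantile normalization (0.452), the deposited values (0.409), the methods' t-test (0.398) and trend and robust eBayes (0.311). Over the mean of its 4 probes Vegfa differed by -0.06, so that the direction for the gene depends on the probe. Which transcripts each probe detects was not analysed here.

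**Figure D2:**
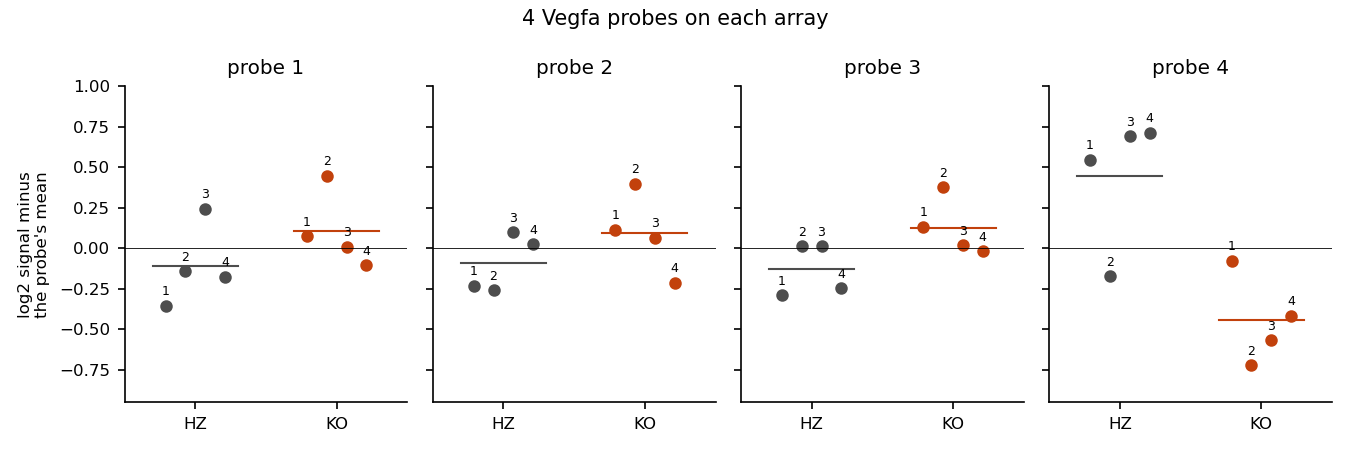
Log2 signal of the 4 Vegfa probes on each array as the deviation from the mean of the same probe over all 8 arrays (vertical axis), HZ in grey and KO in orange, with replicate numbers and a bar at each group mean. KO means lie above HZ means for probes 1, 2 and 3, by 0.21, 0.18 and 0.25, and below for probe 4, by -0.89.

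Kdr, the main signalling receptor for Vegfa, was the member with the widest spread. Its probe read -1.24, 1.29, 0.07 and -0.96 in HZ and -1.33, 0.15, -0.93 and -1.92 in KO. In each group replicate 2 was the highest array and replicate 3 the next, and replicates 1 and 4 were low. The groups overlapped, and the difference of -0.79 (SE 0.62, limma adjusted p = 0.742) was smaller than the SD of 1.15 within HZ and 0.87 within KO. Leaving out HZ replicate 2 brought it to -0.29, and leaving out KO replicate 2 to -1.18.

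Within each replicate number KO was below HZ. The pair differences of Kdr were -0.09, -1.14, -0.99 and -0.96 for replicates 1 to 4, so that replicate 1 hardly differed and the other three differed by similar amounts. Kdr was the 1 member of 8 that was lower in KO in every pair, a pattern found in 9.85% of all genes tested, and 0 of 8 were higher in every pair, against 18.7%. With the replicate number as a block, the SE of Kdr was 0.20 in place of 0.62 and its adjusted p was 0.351, past the looser thresholds. The block called 1 of the 8 members, Kdr, against 2.94% of all genes lower and 0.95% higher in KO.

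The replicate number itself was tested with an F-test of limma in a fit with genotype. For Kdr the means of replicates 1 to 4 were -1.29, 0.72, -0.43 and -1.44, a range of 2.16 on the log2 scale. A wider range was found in 0.685% of all genes tested, and the median range was 0.30. The F-test of limma gave Kdr an adjusted p of 0.273 (unadjusted p = 0.00188), which is also the smallest adjusted p over all probes tested. At an adjusted p under 0.05, 0% of all genes and 0 members were therefore called by replicate number. At an unadjusted p under 0.05 Kdr was the 1 member called, where 13.2% of all genes were, and 0.741% of them had a smaller p than Kdr. Kdr kept an unadjusted p below 0.05 when each array was left out in turn, with p from 1.51e-04 to 0.0154, the highest of these without HZ replicate 2.

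**Figure D3:**
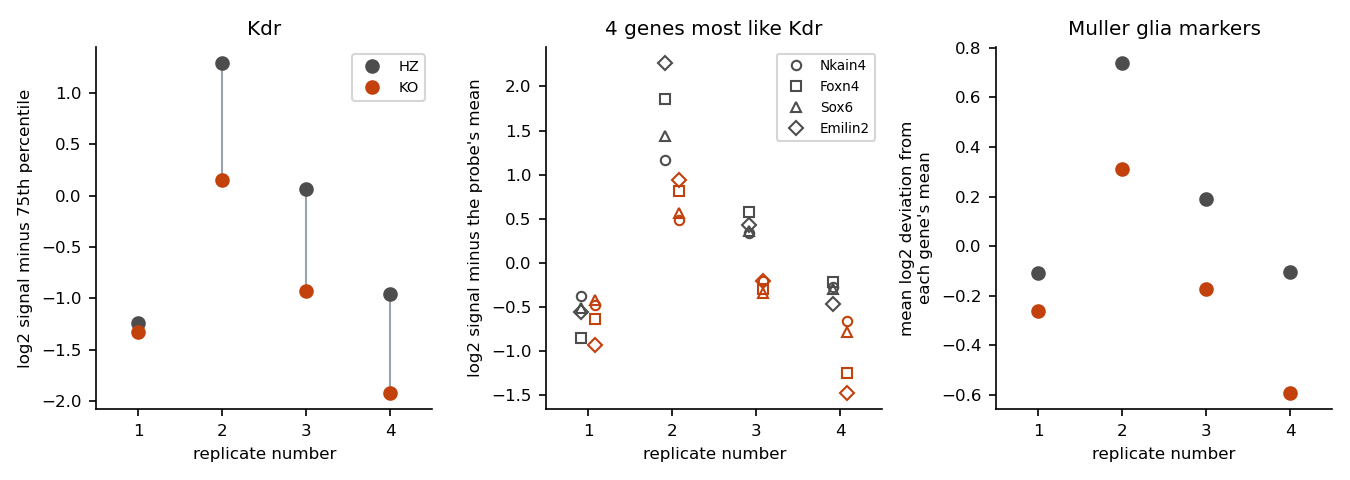
Kdr (left, normalized log2 signal), the 4 genes whose pattern was most like it (middle, deviation from the mean of each probe) and the Muller glia markers (right, mean log2 deviation of the listed genes) by replicate number, HZ in grey and KO in orange; each point is 1 array or, on the right, the list on 1 array. Replicate 2 is highest and KO lies below HZ at each number for Kdr and for the Muller glia markers.

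The genes most like Kdr across the 8 arrays, of 14734 compared, were Nkain4 (Pearson's r 0.994, Spearman's rank correlation 1), Foxn4 (r 0.994, rank correlation 0.952), Sox6 (r 0.990, rank correlation 0.952) and Emilin2 (r 0.990, rank correlation 1). Without the arrays where Kdr was farthest from its median, HZ and KO replicate 2, r was still 0.988, 0.980, 0.985 and 0.974. An r over 0.9 with Kdr was found for 427 of the genes compared. The corresponding count was 15 genes for Vegfa.

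Kdr also moved with marker genes of Muller glia, the radial glia of the retina. Of 15 such genes 14 were tested, 2 were higher and 12 lower in KO, with a median of -0.32, and 1, Car14, was past the looser thresholds at -1.28 (limma adjusted p = 0.349). With the replicate block 2 were past them as lower, Car14 and Rlbp1, which is also in the list of RPE markers below, and at an unadjusted p under 0.05 without it were 3 of the 14. By replicate number 12 of the 14 were at an unadjusted p under 0.05, against 13.2% of all genes. The median was 0.02 without HZ replicate 2, and on leaving out replicate 2 or 4 of KO it was -0.58 or -0.09. Summed signals of a list, here and below, add probes whose levels cannot be compared, so that they follow the brightest probes and a share is one of signal and not of transcripts. The summed signal of these genes, in multiples of the 75th percentile and over the genes measured on all arrays, was 42.7, 60.8, 45.6 and 40.8 in HZ and 39.3, 53.8, 36.9 and 29.9 in KO, with Dbi giving 27.7% of it, and Hes1 was too dim to be tested. The mean deviation of these genes followed Kdr with r 0.985 and rank correlation 0.929 over 8 arrays, and with r 0.947 without HZ and KO replicate 2. Markers of ganglion, amacrine and horizontal cells did so with r 0.947 (rank correlation 0.976, and r 0.887 without replicate 2 of each group). The part of other cell types in the values of Kdr was not tested, and in RNA from many cells a smaller number of cells of a type and less RNA per cell cannot be told apart.

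The promoter windows of Vegfa and of its receptors Kdr and Flt1 are shown because the account of these genes turns on the ligand and the receptors that bind it. They are the 250 bases before a RefSeq start of each gene in GRCm38.p6, all on the minus strand and written 5′ to 3′ along the gene, at chr17:46032378-46032627 for Vegfa, chr5:75978456-75978705 for Kdr and chr5:147726012-147726261 for Flt1. Capitals mark the core of the hypoxia response element, searched as ACGTG or GCGTG on both strands.
Vegfa: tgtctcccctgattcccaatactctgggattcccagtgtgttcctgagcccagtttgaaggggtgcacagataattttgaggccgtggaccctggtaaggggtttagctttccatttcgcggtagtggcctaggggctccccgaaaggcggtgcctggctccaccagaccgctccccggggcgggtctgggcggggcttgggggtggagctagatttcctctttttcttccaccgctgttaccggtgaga
Kdr: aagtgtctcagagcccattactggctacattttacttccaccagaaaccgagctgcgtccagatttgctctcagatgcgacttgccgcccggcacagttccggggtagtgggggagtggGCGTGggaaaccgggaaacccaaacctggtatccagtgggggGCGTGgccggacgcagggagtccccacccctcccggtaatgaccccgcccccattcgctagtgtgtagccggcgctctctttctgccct
Flt1: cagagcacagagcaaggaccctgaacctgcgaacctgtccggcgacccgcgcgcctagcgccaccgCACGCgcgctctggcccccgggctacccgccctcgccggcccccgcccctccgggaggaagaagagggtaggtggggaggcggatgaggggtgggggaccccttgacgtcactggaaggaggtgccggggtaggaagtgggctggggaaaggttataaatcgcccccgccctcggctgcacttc

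The Vegfa window held 0 cores, the Kdr window 2 of the form GCGTG, and the Flt1 window 1 core, which reads CACGC on the strand shown. RefSeq gave starts for 8 of the 10 genes, with none in the table used for Epas1 and Pdgfrb. A second Vegfa start, 7214 bases further into the gene, had 2 cores in its window, and the Hif1a window had 3 matches to ACGTG, of which an overlapping pair came from both strands of the palindrome CACGTG. The windows of Tek, Tie1, Eng and Rgs5 held 0 cores. Of 32851 windows of the same length, 16.57% held ACGTG, 28.16% held GCGTG and 38.6% held either. The GC box GGGCGG, searched on both strands, occurred 2 times in the window of Vegfa, 2 times in that of Kdr and 3 times in that of Flt1, and in 32.74% of all windows. The starts used for Kdr, Flt1, Hif1a and Tek lie 617, 427, 6543 and 203 bases inside the outermost annotated end of the gene, so these windows may overlap transcribed sequence of longer transcripts. A match is a description of the letters and says nothing about binding in these cells.

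Flt1, the second receptor for Vegfa, which binds it tightly and also occurs as a soluble decoy, read -4.02, -2.52, -3.32 and -3.61 in HZ and -2.75, -2.68, -3.33 and -2.82 in KO. HZ replicate 2 was the highest of all 8 arrays, and the other three HZ arrays lay below 3 of the 4 KO arrays. The difference was 0.47 (SE 0.31, limma adjusted p = 0.707), and the pairs were split, with KO higher by 1.27 and 0.79 in replicates 1 and 4 and lower by -0.16 and -0.01 in replicates 2 and 3. Without HZ replicate 2 the difference was 0.76 (adjusted p = 0.286), past the looser thresholds. Leaving out that array raised the calls over all genes, to 197 higher and 454 lower, in place of 49 and 168. The difference of Flt1 was 0.26 without HZ replicate 1 (adjusted p = 0.821) and 0.10 with normexp background correction (adjusted p = 0.863). Flt1 and Kdr thus differed in opposite directions between the groups. In the fit over all 8 arrays without the replicate block neither passed, while Kdr passed the looser thresholds with that block. The difference between Flt1 and Kdr was not tested.

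Tek and Tie1, the receptor pair of the angiopoietin system on endothelial cells, were well above background on 0 of 8 arrays each, so that no fold is given. Their readings of -7.86 to -6.04 for Tek and -7.85 to -6.89 for Tie1 lie in the range of background noise and carry no order. The ligands of this system were measurable. Angpt1, which activates Tek, differed by 0.10 and Angpt2, which can oppose it, by 0.15, with limma adjusted p of 0.952 and 0.654.

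Eng, the endothelial co-receptor, was well above background on 2 HZ and 2 KO arrays. It read -4.27, -6.28, -5.30 and -4.97 in HZ and -5.59, -4.41, -5.54 and -5.15 in KO. The arrays above background were replicates 1 and 3 of HZ and replicates 2 and 4 of KO, the KO values lay inside the HZ range, and the pair differences ran from -1.31 to 1.88. The difference of 0.03 (SE 0.43, limma adjusted p = 0.986) turned to -0.32 without HZ replicate 2.

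Hif1a, the subunit of the hypoxia-inducible factor found in most cell types, read 5.17, 5.04, 5.01 and 4.98 in HZ and 5.15, 4.93, 4.84 and 5.01 in KO. It was the member with the narrowest spread, the groups overlapped, and replicate 1 was the highest array in each group. The difference was -0.06 (SE 0.10, limma adjusted p = 0.856), and with normexp background correction it was 0.09, so no direction is given for Hif1a. Epas1, the related subunit known from endothelial and glial cells, read 0.727, 1.053, 1.201 and 1.025 in HZ and 1.124, 1.503, 1.133 and 1.359 in KO. Of the HZ arrays only replicate 3 reached into the KO range, and HZ replicate 1 was the lowest array. The difference of 0.28 (SE 0.13, limma adjusted p = 0.638) was higher in KO in 3 of 4 pairs. Epas1 was also the member that varied most like Vegfa over the 8 arrays, with r 0.807. HZ replicate 1 was the lowest and KO replicate 2 the highest array for both genes, so these arrays weigh heavily in this r. Whether Epas1 and Vegfa varied alike without them was not analysed here.

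Pdgfrb, the receptor through which endothelial cells recruit pericytes, was well above background on 3 HZ and 2 KO arrays. It read -5.15, -4.85, -5.44 and -6.66 in HZ and -5.71, -5.94, -4.93 and -5.22 in KO. HZ replicate 4 was the lowest of all arrays and HZ replicate 2 the highest, with all KO arrays between them. The difference was 0.08 (SE 0.40, limma adjusted p = 0.963), and it was -0.30 when HZ replicate 4 was left out and 0.30 when HZ replicate 2 was.

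Rgs5, a regulator of G protein signalling that is abundant in pericytes, read -3.96, -3.69, -4.54 and -4.20 in HZ and -4.73, -3.35, -3.11 and -2.34 in KO. KO replicate 1 was the lowest of all 8 arrays, and the other three KO arrays lay above all HZ arrays. The difference was 0.72 (SE 0.46, limma adjusted p = 0.704), higher in KO by 0.34 to 1.86 in 3 of 4 pairs and lower by -0.77 in replicate 1. It was 1.17 without KO replicate 1 and 0.37 without KO replicate 4. Without HZ replicate 2 it was 0.85 (adjusted p = 0.445), past the looser thresholds. In that setting calls rose over all genes, to 197 higher and 454 lower, in place of 49 and 168.

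**Figure D4:**
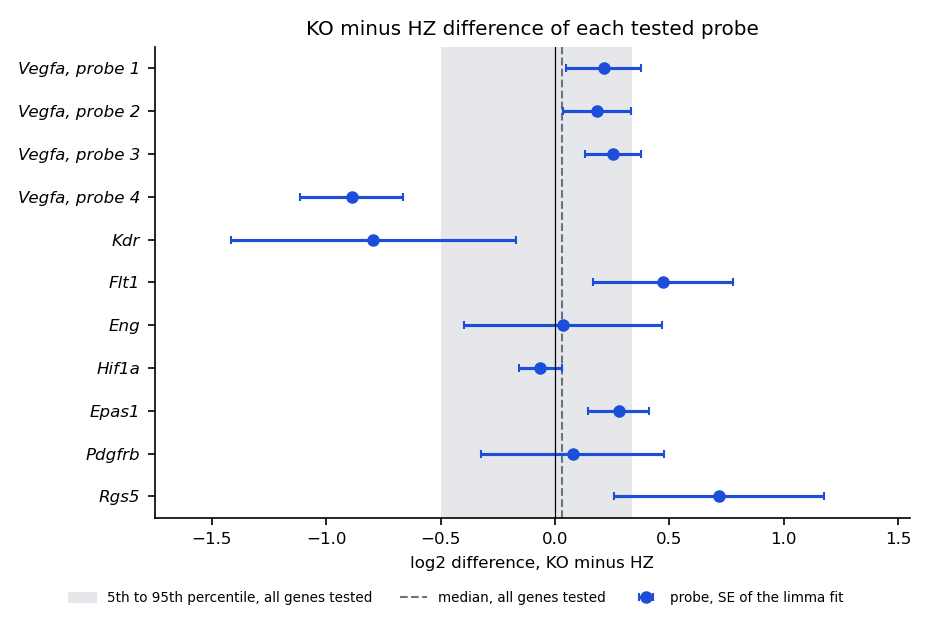
Log2 difference KO minus HZ (horizontal axis) of the 11 tested probes of the 8 genes, with bars of 1 SE from limma on each side; Vegfa has 4 probes. The grey band runs from the 5th to the 95th percentile of all genes tested, -0.50 to 0.33, and the dashed line is their median of 0.03. Kdr, Flt1, Rgs5 and the fourth Vegfa probe lie outside the band.

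For Vegfa the most similar genes were Pyroxd2 (r 0.949, rank correlation 0.976), Slc27a5 (r 0.934, rank correlation 0.952), Pank1 (r 0.934, rank correlation 0.905) and A930009A15Rik (r 0.932, rank correlation 0.976), over the same 8 arrays. Without HZ replicate 1 and KO replicate 2, the farthest from the median of Vegfa, r was 0.856, 0.966, 0.771 and 0.906. Among the members, r with Vegfa ran from -0.43 for Hif1a to 0.81 for Epas1, over all 8 arrays with HZ replicate 1 and KO replicate 2 included.

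The members were set beside other genes of the same pathways. Of 32 further genes of VEGF, angiopoietin and PDGF signalling, 25 were tested, 12 were higher and 13 lower in KO, and their median difference was -0.01. Past the looser thresholds were 2 lower and 0 higher, and 7 of the 25 were at an unadjusted p under 0.05 with limma, against 9.31% of all genes. Thbs1, an extracellular inhibitor of vessel growth, read 0.14, -1.81, -0.52 and -0.55 in HZ and -2.04, -3.19, -2.42 and -4.40 in KO. All KO arrays lay below all HZ arrays, by -2.33 on average (SE 0.57, limma adjusted p = 0.411). Vegfc, a ligand of the lymphatic receptor Flt4 and of Kdr, was also lower on all KO than on all HZ arrays, at -0.88 (SE 0.24, adjusted p = 0.435). Both calls are among those lost when replicate 1 or 3 of HZ or replicate 3 of KO is left out. No gene was called there, and the loss alone does not show that these differences were smaller. Ccn2, a matrix protein, and the chemokine Cxcl12 followed in size with 0.70 each and adjusted p of 0.530 and 0.585, and both passed the looser thresholds with the replicate block, at adjusted p of 0.309 and 0.341. By replicate number 12 of the 25 genes were at an unadjusted p under 0.05, Angpt1, Pgf, Nrp1 and Dll4 among them, against 13.2% of all genes. The mean deviation of this list followed Kdr with r 0.838, and with r 0.845 without HZ and KO replicate 2. Leaving out HZ replicate 2 brought the median of the list to 0.17, and leaving out KO replicate 2 to -0.10.

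Of 13 genes for HIF subunits and oxygen sensing, 12 were tested, 8 were higher and 4 lower, with a median of 0.09 (0.04 without HZ replicate 4) and 0 past the looser thresholds. None was at an unadjusted p under 0.05 with limma. The largest differences were those of Arnt2 (-0.53), Egln2 (0.26), Arnt (-0.19) and Hif3a (0.17), with adjusted p from 0.687 to 0.856. For Arnt, the shared partner of Hif1a and Epas1, 7 of 8 arrays lay between 1.21 and 1.43 and KO replicate 4 at 0.33. The prolyl hydroxylase Egln3, itself a well-known target of hypoxia, was not well above background on enough arrays to be tested.

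Of 37 target genes of HIF, 34 were tested, 18 were higher and 16 lower in KO, with a median of 0.03, beside 0.03 over all genes. With arrays left out the median ran from 0.00 to 0.04, lowest without KO replicate 4. Of the 30 genes well above background on all 8 arrays, 0 were past the looser thresholds. Car12 and Bhlhe40 were past them as lower but are not counted as calls, since the HZ arrays alone took both through the filter. Car12, a membrane carbonic anhydrase, read -2.87, -5.20, -3.71 and -3.76 in HZ and -4.77, -6.47, -5.48 and -6.90 in KO, and was well above background on 4 HZ and 2 KO arrays. HZ replicate 2 lay inside the KO range, and the difference was -2.02 (SE 0.59, limma adjusted p = 0.465). Bhlhe40, a transcription factor, was well above background on 4 HZ arrays and 1 KO array and differed by -1.09 (SE 0.33, adjusted p = 0.483). The KO means of both genes include readings at background, so that the size of these differences is uncertain. Hmox1 and Car9 were the next in size, at 0.73 and 0.56, with adjusted p of 0.623 and 0.695. With the replicate block Hmox1 passed (adjusted p = 0.360), the 1 gene of the 30 that did. At an unadjusted p under 0.05 without the block were 2 of the 34 genes and 0 of the 30.

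**Figure D5:**
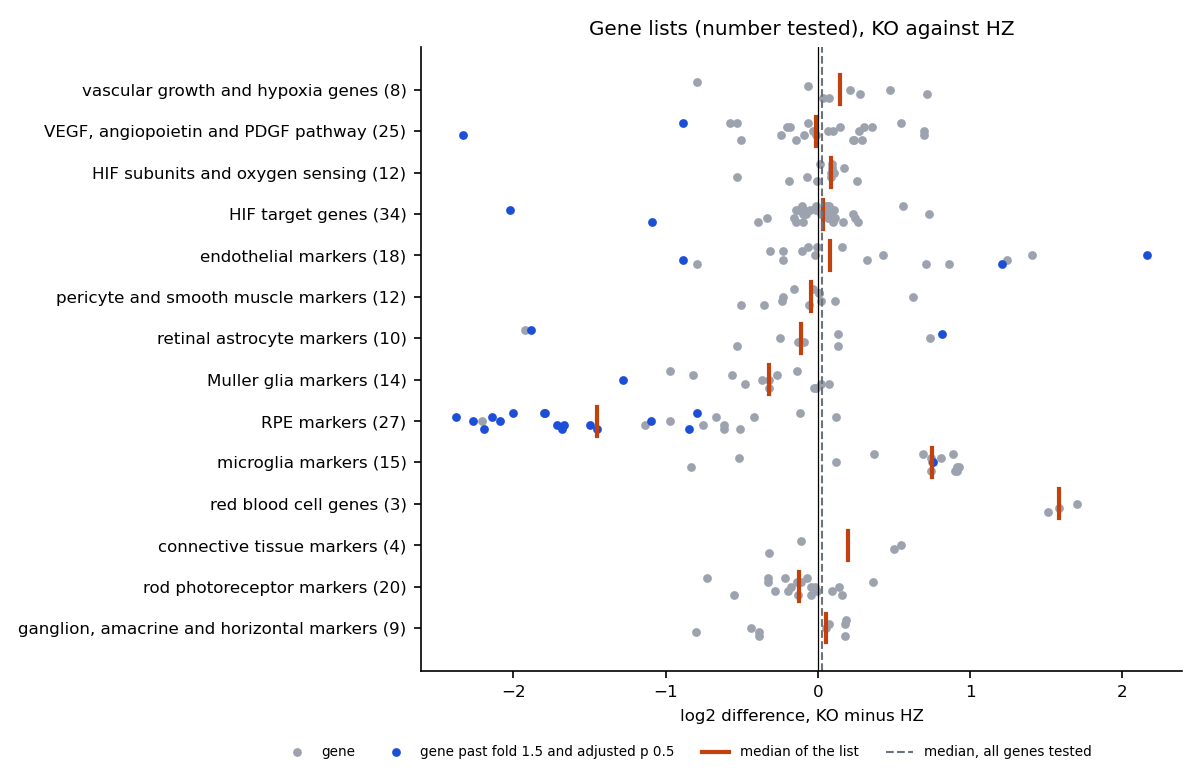
Log2 difference KO minus HZ (horizontal axis) of each tested gene of the 10 vascular growth and hypoxia genes and of 13 gene lists, with the number tested in parentheses; blue points are past the looser thresholds, and an orange bar marks the median of each list. The dashed line is the median of all genes tested, 0.03. The median of the RPE markers is -1.45, and those of the pathway lists lie between -0.01 and 0.09.

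Kdr, Flt1, Tek, Tie1 and Eng are known from endothelial cells, and 28 further markers of that cell type were split. Of these 18 were tested, 9 were higher and 9 lower with a median of 0.08. It turned to -0.03 without HZ replicate 1, to -0.02 without KO replicate 4 and to -0.07 where probes had to be well above background on all arrays, and was 0.19 without HZ replicate 4. Past the looser thresholds were Mfsd2a, lower at -0.88, and Cd34, higher at 1.21. Robo4 was not well above background on any HZ array and was at least 2.23-fold higher in KO (limma adjusted p = 0.363), but it passed the filter through its KO arrays alone and is not counted with these. This bound sets the KO mean against the lowest signal well above background on each HZ array, or the probe's own reading where that was higher. Vwf and Cldn5 were well above background on 2 and 3 HZ arrays and on all KO arrays, so that their differences of 1.41 and 1.24 (adjusted p of 0.623 and 0.640) draw on HZ readings at background and are not counted either. They were past the looser thresholds with the replicate block only (adjusted p of 0.470 and 0.405), and Pecam1 differed by -0.01. Over all 18 tested markers, those not counted included, 2 were past these thresholds as lower and 5 as higher with the block. The summed signal of the list, in multiples of the 75th percentile, was 4.21, 4.14, 3.66 and 4.41 in HZ and 3.68, 4.02, 3.77 and 4.34 in KO, led by Slc16a1 with 23.2%, and Cdh5 was not well above background on any array. The mean deviation of these markers ran against Kdr with r -0.45, and with r -0.70 without HZ and KO replicate 2. That of the Muller glia markers, given above, followed Kdr with r 0.985. With Flt1, Eng and Rgs5 the mean deviation of the endothelial markers had r of 0.06, 0.37 and 0.65. Without the 2 arrays farthest from the median of each gene, r was 0.14, 0.47 and 0.58. Of the 11 tested markers well above background on all 8 arrays, 1 was past the looser thresholds as lower and 1 as higher, with the replicate block as without it, and 3 were at an unadjusted p under 0.05.

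Pdgfrb and Rgs5 were set beside 20 further markers of pericytes and smooth muscle, of which 12 were tested, 5 higher and 7 lower, with a median of -0.04 (-0.13 without KO replicate 2, 0.00 without KO replicate 3) and 0 past the looser thresholds. At an unadjusted p under 0.05 with limma the count was also 0. Gja4 differed by 0.62, Myh11 by -0.50, Acta2 by -0.35 and Cox4i2 by -0.24, with adjusted p from 0.617 to 0.817. With the replicate block Gja4 was past the looser thresholds (adjusted p = 0.421), the 1 gene of this list that was, but it was well above background on 2 HZ and 4 KO arrays. The summed signal was 40.4, 42.5, 51.3 and 57.0 in HZ and 48.5, 49.7, 38.4 and 45.9 in KO, but Mcam gave 69.0% of it. Of the defining markers, Abcc9 was well above background on 0 arrays and Kcnj8 on 1 KO array. The part of endothelial cells or pericytes in the values of the members was not tested.

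Other cell types are given by their whole lists on the same arrays. Of 30 markers of the retinal pigment epithelium (RPE) 27 were tested, 26 were lower and 1 higher in KO, with a median of -1.45 and 16 past the looser thresholds as lower, 13 of them well above background on all 8 arrays and all of them lost when replicate 1 or 3 of HZ or replicate 3 of KO is left out. The median ran from -1.74 to -1.16 with arrays left out. Rpe65 differed by -2.38, Mlana by -2.26, Gpnmb by -2.21 and Krt8 by -2.20, and of these Gpnmb passed with the replicate block only (adjusted p of 0.398, in place of 0.562). Mlana, Gpnmb and Krt8 were well above background on 3, 2 and 3 of the KO arrays. Of the 22 markers well above background on all 8 arrays, 18 passed as lower with the block, and 17 were at an unadjusted p under 0.05 without it. The summed signal of the RPE markers was 169.7, 137.0, 150.1 and 140.7 in HZ and 145.9, 142.9, 138.2 and 135.8 in KO, with 83.8% from Otx2, which photoreceptors express as well. The mean deviation of the RPE markers ran against Epas1, Flt1 and Rgs5 with r -0.79, -0.73 and -0.73 over 8 arrays, and with r -0.71, -0.73 and -0.79 without the 2 arrays farthest from the median of each gene. The retinal astrocyte markers, given below, ran against Rgs5 as well, with r -0.75, and with r -0.84 without KO replicates 1 and 4. Of 15 microglia markers 13 were higher and 2 lower, with a median of 0.75 (0.47 with normexp background correction). The 1 past the looser thresholds, Tmem119 at 0.76, was well above background on 1 HZ and 3 KO arrays. Its difference draws on HZ readings at background, so that its size is uncertain and it is not counted as a call. Cx3cr1, Ctss, C1qa and Aif1 differed by 0.93, 0.92, 0.91 and 0.90 without passing. Of the 13 well above background on all 8 arrays, 0 passed without the block and 8 with it, as higher, and 4 were at an unadjusted p under 0.05. Their summed signal was 36.9, 22.0, 30.4 and 39.7 in HZ and 29.6, 29.5, 25.7 and 12.6 in KO, with Siglech giving 69.5%. The 3 tested red blood cell genes of 8, Hba-a1, Hba-a2 and Hbb-bt, of which the Hba genes are nearly identical in sequence, were higher by 1.51, 1.58 and 1.70 and passed with the block only, and all 3 were at an unadjusted p under 0.05 without it, Hbb-bt with 2 HZ arrays well above background. The summed signal of these red blood cell genes was 0.583, 0.233, 0.205 and 0.233 in HZ and 2.124, 0.635, 0.314 and 1.120 in KO, with Hba-a1 giving 47.7%.

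Of 10 markers of retinal astrocytes, the cells that guide the first retinal vessels, 4 were higher and 6 lower, with a median of -0.11 that turned to 0.12 without HZ replicate 4 and was -0.25 without HZ replicate 2. The median was also above 0 without KO replicate 3 (0.03) and where probes had to be well above background on all arrays (0.02). Of the 8 markers for which this held, 2 were at an unadjusted p under 0.05 with limma, against 9.31% of all genes, and past the looser thresholds were 0 lower and 1 higher, or 2 higher with the replicate block. Over all 10 markers 2 were past them as lower and 2 as higher with the block. Thbs4, the largest difference of the list at -1.92, passed as lower with the block only (adjusted p = 0.357). It was not well above background on all 8 arrays. Gfap, the call without the block, was higher on all KO arrays than on all HZ arrays, by 0.82 (limma adjusted p = 0.333), and Gja1, not well above background in KO, was at least 2.86-fold lower there (adjusted p = 0.327), but it passed the filter through its HZ arrays alone and is not counted as a call. Of 20 rod markers 4 were higher and 16 lower, with a median of -0.12 and 0 past the looser thresholds. Gnb1, at -0.73 (adjusted p = 0.545), was past them with the block only (adjusted p = 0.373), and 1 of the 20 was at an unadjusted p under 0.05. The 4 connective tissue markers tested of 12 had a median of 0.20, which was 0.67 without HZ replicate 3, -0.05 without HZ replicate 1 and -0.06 without a filter on dim probes. The 9 markers of ganglion, amacrine and horizontal cells tested of 20 had one of 0.06, which turned to -0.08, -0.07 and -0.02 without HZ replicates 1, 3 and 4, to -0.06 without KO replicate 2 and to -0.10 without that filter. In both lists 0 were past the looser thresholds, with or without the block, and 0 were at an unadjusted p under 0.05. The part of these cell types in the values of the vascular growth and hypoxia genes was not tested.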

How the data were processed

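Per the labels, RNA of 8 photoreceptor cell samples was hybridized to single-colour arrays. The authors deposited scanner files in which Agilent Feature Extraction 10.7.1.1, named in the submitters' processing notes, gives each spot's background-subtracted signal intensity. The authors also deposited log2 values, used as an alternative. These followed the scanner log2 deviations of the same array with r of 1.00 over 30096 probes, and 53586 of 53586 probes had a median within 1e-06 of 0, so they are log2 signals centred on the median of each probe, and none of scale, centring and direction stays unknown. Their column medians were -0.07, -0.01, -0.03 and 0.20 in HZ and -0.01, 0.06, -0.02 and 0.03 in KO.

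From the intensities, log2 signals minus the 75th percentile were computed, outlier spots left out and spots of a probe averaged. Of 56605 probes, 32994 matched a RefSeq symbol by accession. The 34280 probes with at least 4 arrays well above background and at least 3 values a group were compared with lmFit and eBayes of limma 3.58.1 (R 4.3.3, with version 1.17.8 of data.table), two-sided, with Benjamini-Hochberg adjustment over them. The arrays of 1 group can meet this filter alone, so calls on lists are also given for genes well above background on all 8 arrays. A gene is given by its tested probe with the highest mean. The fits were tested on simulated data. Plots were drawn in matplotlib.

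Arrays correlated with r of 0.974 to 0.992, and 0 pairs were identical. As a check of pairing, deviations from group means correlated with r of 0.172 to 0.337 within replicate numbers, over 0.1 in 4 of 4 pairs. Between numbers r was -0.337 to 0.117, over 0.1 in 1 of 12 pairs. Arrays of the same number thus deviated together. The number is also the slide column, and what these arrays share was not tested. The fit compares the groups without a block, so its errors include the spread between replicate numbers. Results with the block are given beside it. The methods name unpaired tests in general, and for the arrays no test and no block.

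The members and lists were chosen with earlier results of these data known. Named are the members, Lpcat1, Nt5e, the 4 genes of each list with the largest difference, defining markers, and the 4 genes most like Kdr and Vegfa. Those most like Pdgfrb, searched as well, are not given as such, since Pdgfrb was well above background on 5 of 8 arrays only, and 1 of them, Surf4, is named for its spread. Genes named outside this rule (Angpt1, Angpt2, Pgf, Nrp1, Dll4, Egln3, Vegfc's receptor Flt4, Mfsd2a, Tmem119, Hes1 and genes leading a summed signal) were chosen after their values were seen. Not every gene that the rule takes in is named in the text. Alternatives were normexp with an offset of 50, quantile normalization, another percentile, other filters, the deposited log2 values, the replicate block, eBayes with trend and robust settings, the methods' t-test, the mean of a gene's probes and each array left out.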

Additional observations from a re-analysis of the deposited data

Results flagged for a closer look

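The HZ and the KO arrays were looked at for the tested probes of the members, the other genes that the naming rule takes in and the level of each list. Other genes of the lists were not looked at in this way. Among these 185 groups of 4 arrays, 6 held an array whose gap to its nearest neighbour, as a share of the range of the group, was above Dixon's 95% critical value for groups of this size. These are 3.24% of the groups, where chance gives about 5%. The gap as a share of the range was 0.842 for Cxcl12 and 0.846 for S100b, in which HZ replicate 1 was the lowest of its group. For Myh11 HZ replicate 4 was the highest, with a share of 0.893, and for Surf4, looked at as one of the genes most like Pdgfrb, it was the lowest, with 0.863. Nt5e, the marker used for isolation, was lowest in KO replicate 1, with a share of 0.863. The level of the red blood cell genes was highest in HZ replicate 1 among the HZ arrays, with a share of 0.873. Of the 8 vascular growth and hypoxia genes that were compared, 0 had an array above this value in either group.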

How the results depend on the processing

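Flt1, Epas1 and Rgs5 were higher and Kdr was lower in KO under all alternatives that were run. Their ranges were 0.10 to 0.76, 0.19 to 0.34, 0.37 to 1.17 and -1.18 to -0.29. Vegfa was reversed with the mean of its probes (-0.060), Hif1a (0.085) and Eng (-0.024) with normexp background correction. With arrays left out, Pdgfrb ran from -0.30 to 0.30. Eng ran from -0.32 to 0.17 on leaving out replicate 2 or 4 of HZ or replicate 1 or 3 of KO, and was too dim to be compared without any of the other arrays. Lpcat1 was 0.0049 with normexp and ran from -0.097 to 0.022 with arrays left out. The cause of these changes was not tested.

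With the replicate number as a block, 436 genes were lower and 141 higher at the looser thresholds, in place of 168 and 49, and 1 of the members passed, Kdr at -0.79 (adjusted p = 0.351). The block changed no other call on a member. At the stricter thresholds normexp called 14 genes, trend and robust eBayes 2 and the methods' t-test 2, in place of 0. At the looser thresholds no filter left 16 lower and 6 higher genes, trend and robust eBayes gave 77 higher and the mean of a gene's probes 31 higher. With arrays left out, 0 to 454 genes were lower and 0 to 197 higher, highest without HZ replicate 2 and 0 when replicate 1 or 3 of HZ or replicate 3 of KO was left out, and 0 to 2 members passed. By replicate number 0 genes passed an adjusted p of 0.05 under all alternatives run, and 1322 to 2575 were at an unadjusted p under 0.05. Eng and Pdgfrb were not compared where probes had to be well above background on all arrays.

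Tek and Tie1 could not be compared, and Eng and Pdgfrb were measured on some arrays of each group only. Genotype and slide row cannot be told apart, both groups carry a deleted allele, and the labels are not separated by the Lpcat1 probe. Rpe65 was lower on the arrays labelled KO, the direction that the paper reports from qPCR of isolated photoreceptor cells.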
